A study of Mus musculus with 20 samples.

Results

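The 10 genes described here encode proteins of autophagy and mitophagy, the removal of cytoplasm and of mitochondria through the lysosome. They are Ulk1, Becn1, Map1lc3a, Map1lc3b, Gabarapl1, Sqstm1, Bnip3, Bnip3l, Fundc1, and Pink1. They were matched by gene symbol, and all 10 were found among the 15956 genes of the count table. All 10 passed the filter on low counts, which left 13991 genes for testing.

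RNA was measured in left ventricle of 20 male mice, 5 on each of 4 diets that differed in casein and fat. The NP (normal protein) diet held 20% casein and the LP (low protein) diet 5% casein. The HF (high-fat) diet held 60% fat with 20% casein, and the HF + LP diet held 60% fat with 5% casein. By the methods, feeding began at 12 months of age, lasted 4 months, and ended with tissue collection at 16 months. The labels instead give every mouse an age of 18 months. The strain was not given in the sources used here, and each library came from 1 mouse. The labels and methods name no difference in allele or agent between the groups other than diet. According to the labels, NP mice weighed 43.0 ± 7.82 g and LP mice 32.6 ± 2.69 g, while HF mice weighed 58.9 ± 1.76 g and HF + LP mice 48.6 ± 5.93 g (SD, n = 5).

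Autophagy begins when the ULK1 kinase activates a lipid kinase complex built on Beclin 1, the product of Becn1. Proteins of the ATG8 family, to which LC3 (Map1lc3a, Map1lc3b) and GABARAPL1 belong, are then attached to the growing membrane, where the adaptor p62 (Sqstm1) ties ubiquitin-marked cargo to them. Mitochondria are taken up either after the kinase PINK1 gathers on a damaged outer membrane, or through the outer membrane receptors BNIP3, NIX (Bnip3l), and FUNDC1, which bind LC3 directly. Cardiomyocytes are rich in mitochondria and divide little, so they depend on this turnover. Transcript levels measure neither the proteins nor the flux through the pathway.

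Libraries were made with QuantSeq, which reads transcripts from the 3′ end only, and levels of different genes can therefore be compared without a length correction. Total counts lay between 12559607 and 23331907 per mouse. Values below are normalized counts, that is counts scaled by TMM to the mean library size. All 6 cardiomyocyte markers were detected, with summed levels of 26296 to 41405 CPM (counts scaled to the same total in each library). Markers of ventricle alone were not listed, so this sum does not show whether a library was free of atrial tissue. The library of LP mouse 13 stood apart. Its median correlation with the other LP libraries was 0.908, and it had the highest summed adipocyte markers (Adipoq, Plin1, Cfd) at 259 CPM and the highest summed atrial markers (Sln, Myl7, Nppa) at 13415 CPM. HF mouse 1 was next in atrial markers at 10856 CPM. LP mouse 13 was also the lowest or highest of all mice for 5 of the 10 genes, whose LP means are given with and without it. HF + LP mouse 3 had the highest atrial sum of its group, at 4579 CPM beside a group median of 142 CPM. Its summed erythroid markers, at 16753 CPM, were the highest of all mice. In a bulk sample, fewer cells of a type and less RNA per cell cannot be told apart.

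**Figure D1:**
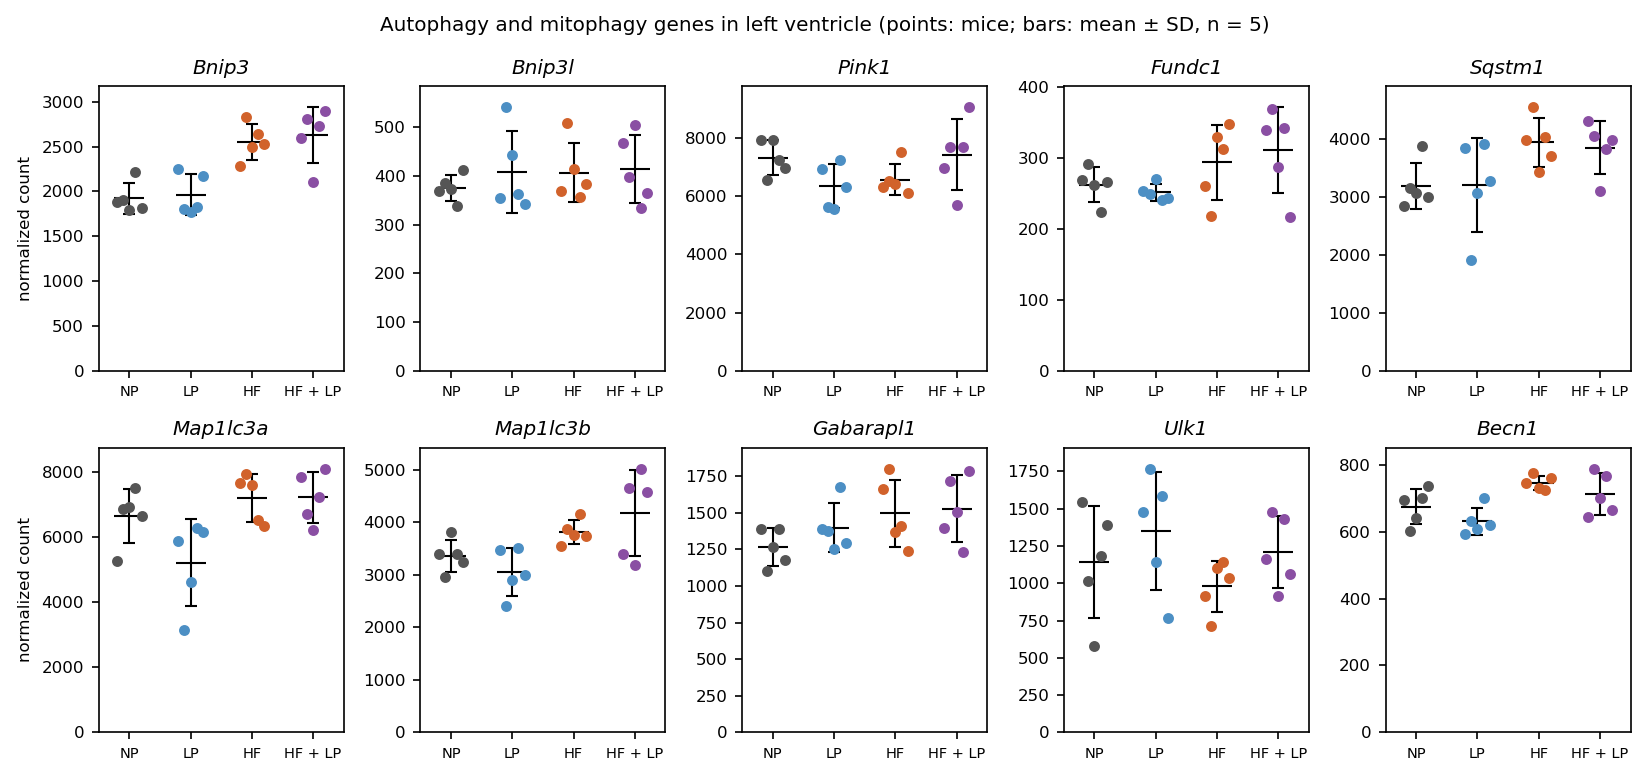
Normalized counts of the 10 genes (vertical axis, starting at 0) in the 4 diet groups (horizontal axis), with 1 point per mouse and bars for the mean ± SD of 5 mice. The 5 HF points of Bnip3 lie above the 5 NP points, and LP mouse 13 is the lowest point of Sqstm1, Map1lc3a, and Map1lc3b.

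All 10 genes were well expressed. In order of the mean normalized count over 20 mice they were Pink1 (6908), Map1lc3a (6580), Map1lc3b (3600), Sqstm1 (3553), Bnip3 (2268), Gabarapl1 (1421), Ulk1 (1170), Becn1 (691), Bnip3l (401), and Fundc1 (280). Pink1 and Map1lc3a did not separate, since Pink1 was the higher of the 2 in 12 of 20 mice, and neither did Map1lc3b and Sqstm1, where the former was higher in 11 of 20. Gabarapl1 was above Ulk1 in 15 of 20 mice, Ulk1 above Becn1 in 18 of 20, and Bnip3l above Fundc1 in 19 of 20. The other neighbours in this order kept their order in all 20 mice. The genes differed in how evenly they were expressed. The coefficient of variation over 20 mice was lowest for Becn1 at 8.93% and highest for Ulk1 at 26.9%.

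The comparisons ask what dietary fat and protein restriction each did to these transcripts. With high fat, Bnip3 rose by 1.33-fold. It was the only one of the 10 genes past the threshold, and 6 others had positive log2 fold changes of 0.16 to 0.31 at an unadjusted p under 0.05 only. Protein restriction, with or without high fat, moved none of the 10 past the threshold. A gene is called here at a Benjamini-Hochberg adjusted p under 0.01 over all 13991 genes if its normalized count also averages more than 50 over the mice, which are the study's criteria, in edgeR's quasi-likelihood test fitted to all 20 mice.

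The fat effect compares the 10 mice on high fat with the 10 mice without it, averaged over both protein levels. In it 1 of the 10 genes was called, beside 1% of all genes tested. At an unadjusted p under 0.05, 7 of the 10 genes were higher and 0 lower, beside 8.28% of all genes higher, 12.6% lower, and 20.8% in either direction. The median log2 fold change of the 10 genes was 0.21, and that of all genes was −0.02. In the single contrasts, HF against NP called 0 of the 10 genes (0.264% of all genes) and placed 1 at an unadjusted p under 0.05 (13.1%), and HF + LP against LP called 0 (0.1%) and placed 5 under 0.05 (15.9%). The counts under 0.05 were not stable. The first was 4 without HF + LP mouse 3, 4 with DESeq2, and 5 with only these groups in the fit, and the second was 3 without LP mouse 13, LP mouse 5, HF + LP mouse 2, or HF + LP mouse 4. These contrasts and the fat effect share the same mice. DESeq2 called Bnip3 in both single contrasts.

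Bnip3 (ENSMUSG00000078566, GRCm38 chr7:138890836-138909519, minus strand) encodes an outer mitochondrial membrane receptor for mitophagy and is a known target of the hypoxia-inducible factor HIF1. Its normalized counts in NP mice 4, 5, 3, 6, and 8 were 1888, 1911, 1792, 2221, and 1815. In HF mice 1 to 5 they were 2281, 2825, 2498, 2636, and 2530. Every HF mouse was above every NP mouse, a separation that 5.67% of all genes showed in one direction or the other. In LP mice 2, 13, 20, 15, and 5 the counts were 2254, 1808, 1767, 1823, and 2175, and in HF + LP mice 1 to 5 they were 2595, 2808, 2104, 2727, and 2902. Here 4 of 5 HF + LP mice were above every LP mouse, and HF + LP mouse 3 lay inside the LP range. In full, 0 of the 10 genes separated HF + LP from LP, as 1.87% of all genes did.

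Over both protein levels the log2 fold change of Bnip3 with high fat was 0.41 (SE 0.07), or 1.33-fold, with a 95% interval of 0.26 to 0.57 on the log2 scale (edgeR adjusted p = 0.00287), which ranked 74 among all genes by p. Its size was alike at each protein level. It was 0.41 (SE 0.10, edgeR adjusted p = 0.0539) for HF against NP and 0.42 (SE 0.10, edgeR adjusted p = 0.0818) for HF + LP against LP, and their difference was 0.01 on the log2 scale, with a 95% interval of −0.29 to 0.32. Protein restriction left Bnip3 within 0.04 on average, with intervals on the log2 scale of −0.19 to 0.24 for LP against NP and −0.17 to 0.26 for HF + LP against HF. Bnip3 was higher with high fat in each of the 3 numbers that the library names carry, by 0.30, 0.56, and 0.41 in mean log2 CPM. The mice with and without high fat were 2 and 3, 2 and 3, and 6 and 4. This order was not particular to Bnip3, since Bnip3l was also higher in all 3, by 0.003, 0.24, and 0.06. It was called in each of 20 fits that left out 1 mouse, with adjusted p between 0.000667 and 0.00793, and without both LP mouse 13 and HF mouse 1 the value was again 0.41 (adjusted p = 0.00606).

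The Bnip3 promoter is shown because Bnip3 is the called gene, with those of P4ha1 and Egln3, 2 other HIF1 target genes described below that were chosen after their values were seen. The windows are 300 bases around the annotated start in RefSeq (GRCm38.p6), read 5′ to 3′ on the gene's strand. Capitals mark the core hypoxia response letters ACGTG on either strand, of which CACGT is the reverse complement. The windows are chr7:138909457-138909756 (minus) for Bnip3, chr10:59323046-59323345 (plus) for P4ha1, and chr12:54203825-54204124 (minus) for Egln3.
Bnip3: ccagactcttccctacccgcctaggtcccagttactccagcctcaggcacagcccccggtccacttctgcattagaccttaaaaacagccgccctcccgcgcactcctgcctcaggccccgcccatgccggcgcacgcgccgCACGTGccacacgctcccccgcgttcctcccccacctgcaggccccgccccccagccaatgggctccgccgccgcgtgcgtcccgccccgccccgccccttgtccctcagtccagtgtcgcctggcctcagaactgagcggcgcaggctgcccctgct
P4ha1: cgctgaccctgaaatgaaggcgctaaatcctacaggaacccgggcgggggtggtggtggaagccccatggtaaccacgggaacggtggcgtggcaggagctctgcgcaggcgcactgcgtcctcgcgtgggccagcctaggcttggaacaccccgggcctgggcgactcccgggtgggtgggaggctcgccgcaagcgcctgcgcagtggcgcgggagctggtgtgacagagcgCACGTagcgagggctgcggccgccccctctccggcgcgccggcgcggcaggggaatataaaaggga
Egln3: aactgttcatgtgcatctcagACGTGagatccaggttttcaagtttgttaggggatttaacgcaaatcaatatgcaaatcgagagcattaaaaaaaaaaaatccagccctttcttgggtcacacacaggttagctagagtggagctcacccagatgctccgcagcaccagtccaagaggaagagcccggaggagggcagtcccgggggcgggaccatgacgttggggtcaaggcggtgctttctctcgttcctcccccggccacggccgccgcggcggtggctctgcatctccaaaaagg

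In Bnip3 the letters occurred on both strands as the overlapping palindrome CACGTG, beginning 108 bases before the start. P4ha1 held them 16 bases and Egln3 229 bases before the start. A window was found for 7 of the 10 genes, and Bnip3 alone among the 7 held ACGTG, which 19.6% of all 32851 windows held on either strand. CACGTG, which always contains ACGTG, was in 7.15% of all windows. The FOXO letters TGTTTAC were in none of the 7 windows (3.65% of all), and the antioxidant response core TGACNNNGC was in that of Map1lc3b (12.4% of all). The CLEAR element of lysosomal genes, whose letters contain CACGTG, was in none of the 7 (0.326% of all). Bnip3l, Map1lc3a, and Becn1 had no window among those used.

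**Figure D2:**
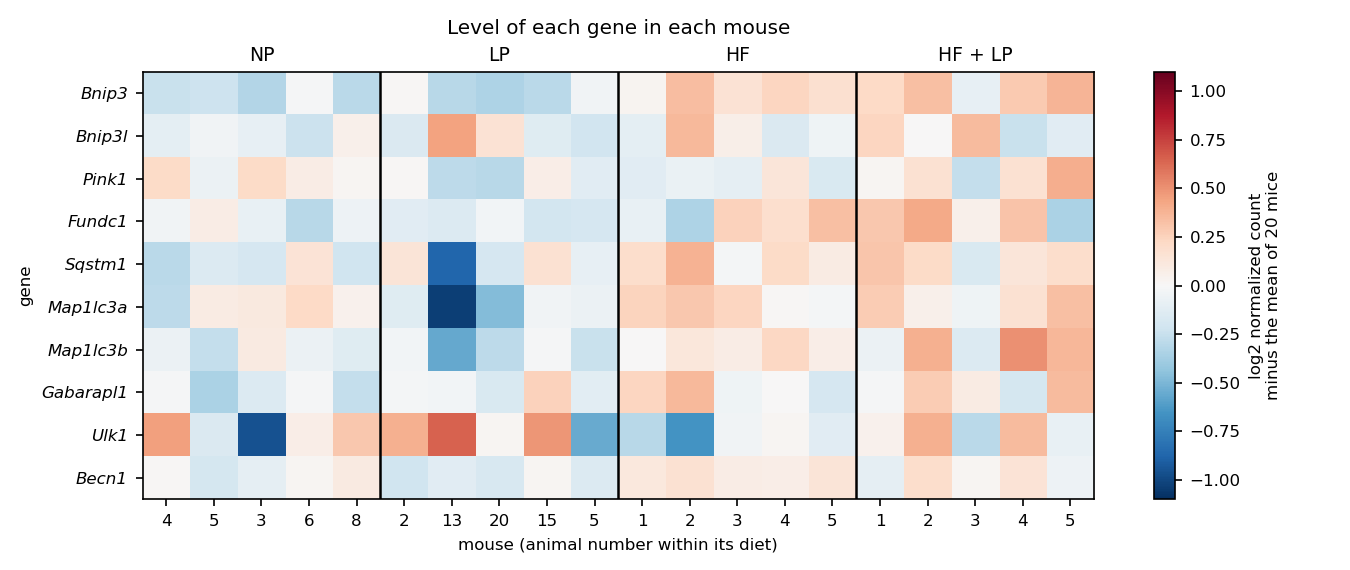
Level of each gene (rows) in each mouse (columns, with animal numbers, grouped by diet), as the log2 normalized count minus the gene's mean over 20 mice. Bnip3 is above its mean in 9 of 10 mice on high fat, and the column of LP mouse 13 holds the lowest values of Map1lc3a, Sqstm1, and Map1lc3b and the highest of Bnip3l and Ulk1.

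Bnip3l (ENSMUSG00000022051, chr14:66985239-67008877) encodes NIX, the closest relative of BNIP3, and varied less with diet. Its means were 375 ± 27.4 (NP), 409 ± 83.7 (LP), 406 ± 60.6 (HF), and 414 ± 70.3 (HF + LP) as mean ± SD of 5 mice. Without LP mouse 13, at 541 the highest of all mice, the LP mean was 375 ± 45.1 (SD, n = 4). The groups overlapped, and the fat effect was 0.06 on the log2 scale with a 95% interval of −0.14 to 0.27. Bnip3 therefore made up more of the summed counts of the pair in the high-fat groups, with 86.3 ± 1.24% for HF mice and 86.2 ± 3.52% for HF + LP mice against 83.6 ± 1.98% for NP mice and 82.6 ± 4.12% for LP mice (SD, n = 5). The ranges of these shares overlapped, since NP reached 86.8% and HF began at 84.8%, and the shares were not tested.

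Fundc1 (ENSMUSG00000025040, chrX:17556564-17572325) encodes the third of these receptors and had the lowest level of the 10 genes. It was 262 ± 24.7 (NP), 252 ± 12.1 (LP), 294 ± 53.2 (HF), and 311 ± 60.6 (HF + LP) as mean ± SD of 5 mice. Within each high-fat group the mice were spread wide, from 219 to 348 in HF and from 217 to 370 in HF + LP, while the LP mice lay between 241 and 271. The fat effect was 0.24 (SE 0.10) on the log2 scale, and it did not pass the threshold (edgeR adjusted p = 0.166).

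Pink1 (ENSMUSG00000028756, chr4:138313409-138326307), the kinase that marks damaged mitochondria, had no fat effect beyond its error (0.04, 95% interval −0.13 to 0.20 on the log2 scale), and its levels did not order by fat. In NP mice 4, 5, 3, 6, and 8 the counts were 7914, 6543, 7934, 7241, and 6969, and in LP mice 2, 13, 20, 15, and 5 they were 6933, 5616, 5559, 7230, and 6305. In HF mice 1 to 5 they were 6300, 6506, 6409, 7506, and 6109, and in HF + LP mice 1 to 5 they were 6964, 7677, 5708, 7695, and 9051. Thus 3 of 5 LP mice and 4 of 5 HF mice were below every NP mouse, whereas 3 of 5 HF + LP mice were above every HF mouse and HF + LP mouse 3 was below all of them. The group means were 7320 ± 605 (NP), 6329 ± 755 (LP), 6566 ± 546 (HF), and 7419 ± 1219 (HF + LP) as mean ± SD of 5 mice.

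The effect of protein restriction on Pink1 was −0.21 (SE 0.11) on the log2 scale without high fat and 0.18 (SE 0.11) with it. The interaction, which tests the difference of the 2, was 0.39 (SE 0.16), with an unadjusted p of 0.0262 and an edgeR adjusted p of 0.683. It was the only one of the 10 genes with an unadjusted p under 0.05 in the interaction, where 7.17% of all genes had one and 0% were called. Its unadjusted p rose to 0.0631 without HF + LP mouse 5, the highest of all 20 mice, and to 0.0635 without LP mouse 13 and HF mouse 1 together.

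Sqstm1 (ENSMUSG00000015837, chr11:50199366-50210827) encodes p62 and is itself degraded with its cargo. Its means were 3193 ± 401 (NP), 3209 ± 810 (LP), 3948 ± 419 (HF), and 3861 ± 452 (HF + LP) as mean ± SD of 5 mice. LP mouse 13, at 1913, was the lowest of all mice, and the LP mean without it was 3533 ± 418 (SD, n = 4). The fat effect was 0.29 (SE 0.11) on the log2 scale (edgeR adjusted p = 0.130), with 6 of 10 mice on high fat above every mouse without it.

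Of the ATG8 family, 3 members are among the 10 genes. Map1lc3b (ENSMUSG00000031812, chr8:121590361-121598760), which encodes the LC3 form most often used as a marker of autophagosomes, was at 3395, 2961, 3810, 3397, and 3240 in NP mice 4, 5, 3, 6, and 8, and at 3551, 3873, 3752, 4154, and 3740 in HF mice 1 to 5. In LP mice 2, 13, 20, 15, and 5 it was at 3482, 2405, 2899, 3514, and 2991, and in HF + LP mice 1 to 5 at 3399, 4653, 3193, 5022, and 4577. Without LP mouse 13, the lowest of all, the LP mean was 3221 ± 322 instead of 3058 ± 459 (SD, n = 4 and n = 5). The HF + LP mice fell apart, with mice 2, 4, and 5 above all mice without high fat and mice 1 and 3 inside their range. The fat effect was 0.31 (SE 0.09) on the log2 scale, or 1.24-fold with a 95% interval of 1.09 to 1.42 (edgeR adjusted p = 0.0492). It was called only by DESeq2 (adjusted p = 0.00989).

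Map1lc3a (ENSMUSG00000027602, chr2:155276297-155278073) encodes another LC3 form, and its mean was lower in LP than on the other diets, with or without LP mouse 13. In LP mice 2, 13, 20, 15, and 5 it was at 5896, 3145, 4637, 6275, and 6170, against a range of 5280 to 7513 in NP. The LP mean was 5225 ± 1334 with all 5 mice and 5745 ± 755 without mouse 13 (SD). LP mice 13 and 20 were below every NP mouse and the other 3 LP mice lay within the NP range. LP against NP was −0.35 (SE 0.15) on the log2 scale, with an unadjusted p of 0.0328 and an edgeR adjusted p of 0.654, and −0.21 with an unadjusted p of 0.0978 without LP mouse 13. The mice on high fat averaged 7214 ± 730 on HF and 7227 ± 783 on HF + LP (SD, n = 5). The fat effect was 0.29 (SE 0.11, edgeR adjusted p = 0.124), made up of 0.12 for HF against NP and 0.47 for HF + LP against LP. Without LP mouse 13 the latter was 0.33.

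Gabarapl1 (ENSMUSG00000030161, chr6:129533160-129542346) belongs to the GABARAP branch of the same family. Its means were 1265 ± 128 (NP), 1397 ± 167 (LP), 1494 ± 228 (HF), and 1525 ± 228 (HF + LP) as mean ± SD of 5 mice, and the groups overlapped. The fat effect was 0.18 (SE 0.09) on the log2 scale (edgeR adjusted p = 0.234). Of the summed counts of the 5 measured ATG8 genes, with Gabarap and Gabarapl2 included, Map1lc3a took 45.5 to 50.8% in the group means, Map1lc3b 25.8 to 27.9%, and Gabarapl1 9.74 to 12.6%.

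Of the genes that start autophagy, Becn1 (ENSMUSG00000035086, chr11:101285952-101302286) showed a small and even difference. Its counts in HF mice lay between 724 and 775 and in NP mice between 603 and 736, with means of 747 ± 21.0 and 675 ± 52.6 (SD, n = 5). Those in HF + LP lay between 645 and 788 and those in LP between 593 and 700, with means of 713 ± 62.4 and 631 ± 40.9 (SD, n = 5). In both pairs 3 of 5 mice on high fat were above every mouse without it, and the fat effect was 0.16 (SE 0.06) on the log2 scale (edgeR adjusted p = 0.116).

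Ulk1 (ENSMUSG00000029512, chr5:110784488-110810097), the initiating kinase, had the widest spread between mice. Its counts ran from 581 in NP mouse 3 to 1545 in NP mouse 4, and from 767 in LP mouse 5 to 1769 in LP mouse 13, without which the LP mean was 1243 ± 368 instead of 1348 ± 396 (SD). The HF mice lay between 714 and 1141 and the HF + LP mice between 916 and 1478. The fat effect was −0.19 (SE 0.16) and the effect of protein restriction over both fat levels 0.27 (SE 0.17) on the log2 scale, and neither passed the threshold (edgeR adjusted p = 0.558 and 1.00). The sign with fat was not stable, since the difference in mean log2 CPM was −0.63, 0.15, and −0.05 among libraries of the 3 numbers. The interval for HF + LP against HF ran from −0.18 to 0.79, so that a rise of up to 1.73-fold was within the error.

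**Figure D3:**
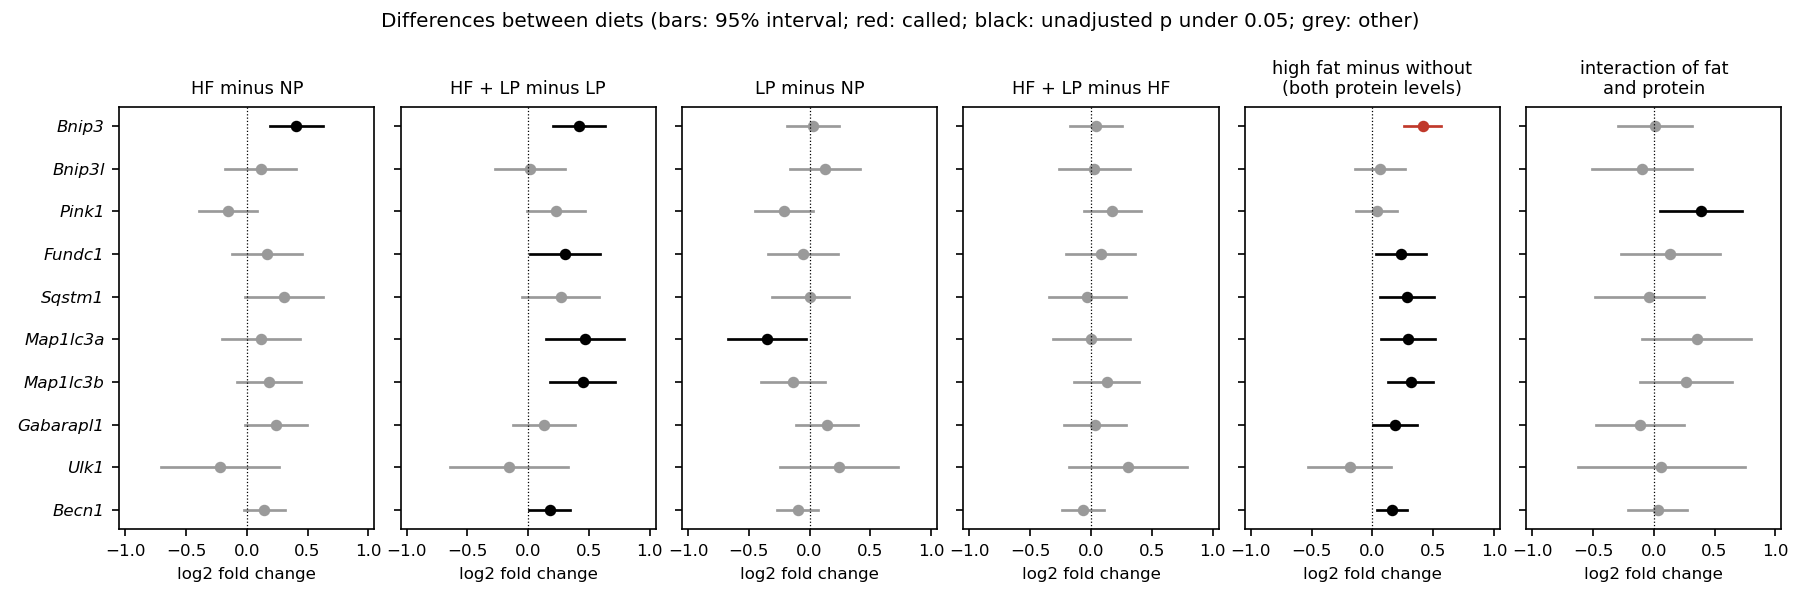
Log2 fold changes (horizontal axis) of the 10 genes (vertical axis) in 4 single contrasts, in the fat effect, and in the interaction of fat and protein, with 95% intervals. Bnip3 in the fat effect, at 0.41, is called, and 7 of 10 genes have intervals above 0 there, while the panels of protein restriction hold 1 interval that excludes 0, that of Map1lc3a for LP against NP.

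Protein restriction moved none of these genes past the threshold. For HF + LP against HF, which asks what low protein does on a high-fat diet, 0 of the 10 genes were called by edgeR or DESeq2 and 0 had an unadjusted p under 0.05, beside 0% and 4.84% of all genes. Their log2 fold changes lay between −0.07 for Becn1 and 0.30 for Ulk1, with a median of 0.04 (all genes 0.02). For LP against NP 0 were called by either tool and 1 had an unadjusted p under 0.05, the Map1lc3a value above, beside 0% and 7.23% of all genes. Over both fat levels 0 of the 10 genes were called by either tool and 0 had an unadjusted p under 0.05, beside 0% and 5.47% of all genes. The interaction likewise called 0 of the 10 genes with either tool. Of the 10 intervals for HF + LP against HF, those of Pink1 and Ulk1 reached 0.41, the size of the Bnip3 difference with fat.

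Some marker levels moved with fat as well. Of the 6 cardiomyocyte markers, Myh6 was called lower with high fat, by −0.55 (SE 0.09) on the log2 scale (edgeR adjusted p = 0.00252). The others were not called and were split, with Ryr2 at −0.37, Tnnt2 at −0.06, Actc1 at −0.04, Pln at 0.06, and Myl2 at 0.10. The median of the 6 was −0.05. Their summed level ran from 27659 to 34307 CPM in HF against 35098 to 41405 CPM in NP, while HF + LP (27646 to 39912 CPM) overlapped LP (26296 to 38431 CPM). The 5 endothelial markers summed to 516 to 641 CPM in HF and 468 to 552 CPM in NP, and to 468 to 686 CPM in HF + LP and 378 to 655 CPM in LP. Of the 3 smooth muscle markers, Myh11 was called lower with fat, and their sum was at most 58.5 CPM in HF and at least 69.5 CPM in NP, while HF + LP (59.2 to 152 CPM) overlapped LP (60.9 to 278 CPM). The 3 adipocyte markers had log2 fold changes of −2.10 to −2.47 with fat (edgeR adjusted p = 0.137 to 0.234), and their sum reached 38.2 CPM in NP, 259 CPM in LP, 61.4 CPM in HF, and 9.36 CPM in HF + LP. The 5 macrophage markers were all above 0 for HF against NP, with a median log2 fold change of 0.40, and all below 0 for HF + LP against HF, and 0 were called. Over both protein levels they were split, with Cd68 at 0.50 (adjusted p = 0.0367), Adgre1 at 0.21, Mrc1 at 0.17, C1qa at −0.04, and Csf1r at −0.10, and their sum was 173 to 244 CPM in HF, 132 to 215 CPM in NP, 133 to 198 CPM in HF + LP, and 103 to 303 CPM in LP. No fibroblast, erythroid, or atrial marker was called. The mitochondrial genome's own transcripts made up 38.7 ± 0.751% of counts for HF mice and 43.2 ± 2.48% for NP mice, and the order was the other way with low protein, at 43.3 ± 3.37% for HF + LP mice and 40.3 ± 3.94% for LP mice (SD, n = 5). The part of these differences in the values of the 10 genes was not tested, except that Bnip3 was also called with mitochondrial transcripts left out of the library sizes.

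The other autophagy and mitophagy genes had values in both directions in the fat effect over both protein levels. Of 85 further genes listed by role, 84 were tested, and 0 were called in any of the 7 comparisons. In the fat effect 8 were higher and 10 lower at an unadjusted p under 0.05, a share near the 20.8% of all genes (8.28% higher, 12.6% lower), and their median log2 fold change was −0.01, beside 0.21 for the 10 genes above. The lower ones included Rptor, the mTORC1 scaffold that holds autophagy back when nutrients are ample, by −0.33 (SE 0.07, edgeR adjusted p = 0.0145), and Rubcn, an inhibitor of the Beclin 1 complexes, by −0.31 (SE 0.08, adjusted p = 0.0317). Fundc2, a relative of Fundc1, was higher by 0.34 (SE 0.09, adjusted p = 0.0257). For HF against NP 11 of the 84 were lower and 0 higher at an unadjusted p under 0.05, beside 7.91% of all genes lower and 5.17% higher (13.1% in all). Among the 11 were Rptor (−0.43, adjusted p = 0.0455) and Rubcn (−0.42, adjusted p = 0.0684). In HF mice Rptor was at 157 ± 21.2 and Rubcn at 283 ± 26.4, against 212 ± 3.85 and 379 ± 29.3 in NP mice (SD, n = 5). Of the 84 genes, 4 separated HF from NP in full, all lower (Rptor, Rubcn, Mtor, and Foxo3, the last 2 named after their values were seen), beside 5.67% of all genes in either direction.

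By role, both other ATG8 genes, Gabarap and Gabarapl2, were higher with fat at an unadjusted p under 0.05 (0.19 and 0.18), as were 1 of 4 further genes of the ULK1 complex (Ulk2, 0.23) and 1 of 11 genes of ATG8 conjugation (Atg5, 0.26). Of 6 other cargo receptors 2 were lower, Calcoco1 (−0.74, edgeR adjusted p = 0.0399) and Wdfy3 (−0.18). Tomm7, which holds PINK1 at the outer membrane, was higher (0.13). Of 6 other mitophagy receptors 2 were higher and 1 was lower, Fkbp8 (−0.30, edgeR adjusted p = 0.0579). Of 14 genes of fusion with the lysosome 1 was lower (Vps39, −0.32), and of 8 genes of the Beclin 1 complexes 1 was lower (Rubcn). Of 8 tested genes of membrane supply 0 passed, and of 13 upstream kinases and transcription factors 1 was higher and 4 lower. The genes other than Rptor, Rubcn, and Fundc2 in this paragraph were chosen after their values were seen.

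For HF + LP against LP 9 of the 84 genes were higher and 5 lower at an unadjusted p under 0.05, beside 6.26% of all genes higher and 9.66% lower (15.9% in all). Fundc2 was higher by 0.46 (edgeR adjusted p = 0.0931), with 3413 ± 387 in HF + LP and 2482 ± 383 in LP (SD, n = 5), and was 1 of 3 of the 84 genes without overlap between these groups (1.87% of all genes), and Ulk2 was higher by 0.33 (adjusted p = 0.108). Nipsnap1, which marks damaged mitochondria, differed by −1.85 (adjusted p = 0.0730), but its counts were low, with a median of 15.4 and a highest value of 73.2 in LP, where mice 13 and 20 stood above the rest, and a highest value of 24.5 on the other diets. It also led LP against NP (1.80, adjusted p = 0.387), where Foxo1 was next (0.25, adjusted p = 0.508), and the interaction (−2.45, adjusted p = 0.614), where Bcl2l13 (0.31) and Tmem41b (0.34) followed. For HF + LP against HF, Bcl2l13 (0.22, adjusted p = 0.766) and Atg16l2 (0.30, adjusted p = 0.970) were the only 2 under 0.05, and for protein restriction over both fat levels they were Foxo1 (0.19, adjusted p = 0.678) and Prkab1 (0.18, adjusted p = 0.855).

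**Figure D4:**
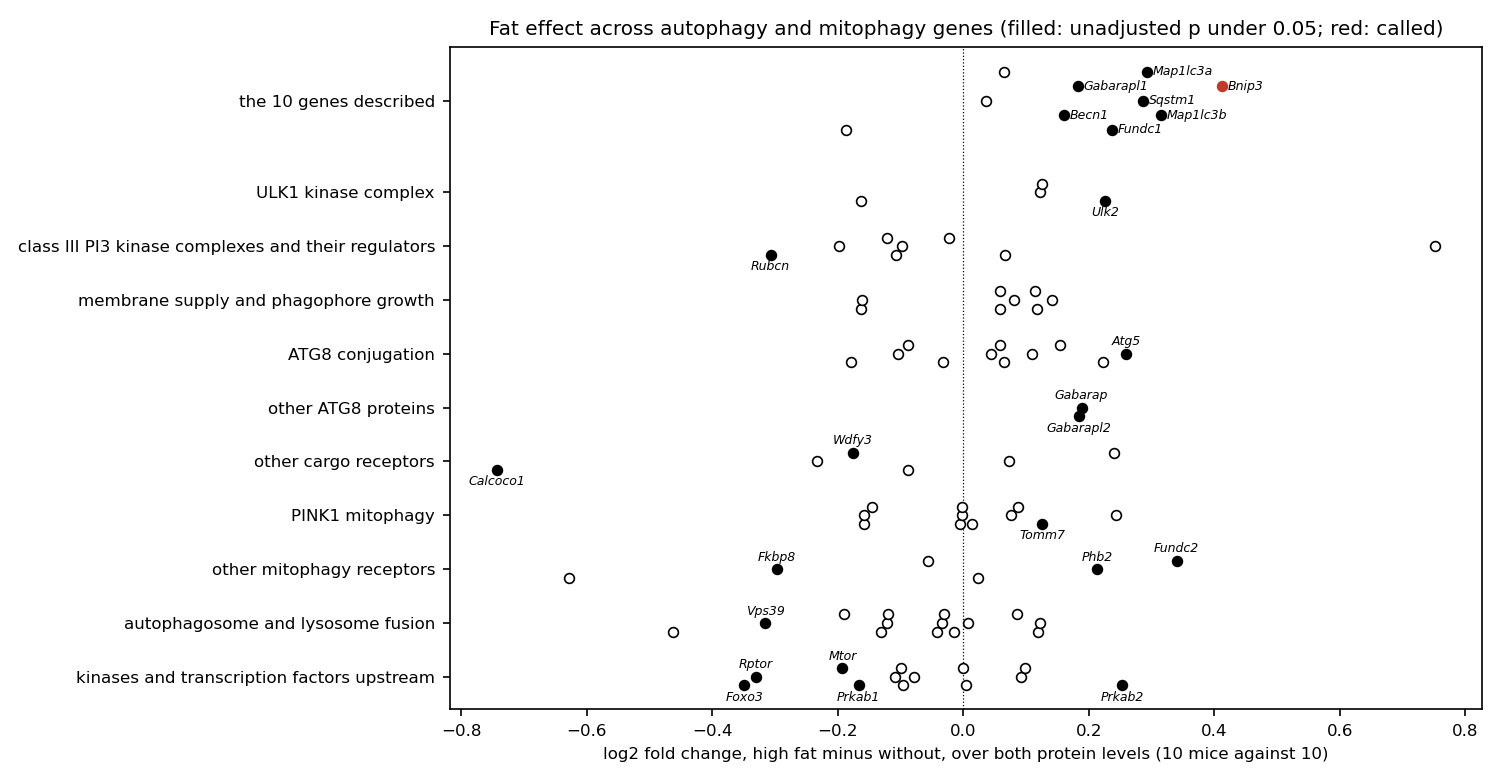
Log2 fold change of the fat effect (horizontal axis) for the 10 genes and for other autophagy and mitophagy genes by role (vertical axis), with 1 point per gene, filled and named where the unadjusted p is under 0.05. The 7 filled points of the 10 genes all lie to the right of 0, whereas the filled points of the other genes fall on both sides.

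Targets of 3 transcription factors known to act on some of these genes were listed beside them. Of all genes, 1% were called with fat, and 8.28% were higher and 12.6% lower at an unadjusted p under 0.05. Among 10 HIF1 targets, P4ha1 (a collagen prolyl hydroxylase) and Egln3 (a HIF prolyl hydroxylase) were called with fat, by 0.49 (SE 0.08, edgeR adjusted p = 0.00188) and 0.81 (SE 0.14, adjusted p = 0.00267). P4ha1 was at 277 ± 23.0 in NP and 390 ± 47.0 in HF, and Egln3 at 730 ± 98.8 and 1041 ± 228 (SD, n = 5), without overlap in either case, as in 5.67% of all genes. The list as a whole did not move one way. Egln1 was also higher at an unadjusted p under 0.05, Slc2a1 (−0.45) and Pfkfb3 (−0.52) were lower, and the median was 0.04. Of 7 tested NRF2 targets 2 were higher, Srxn1 (0.34, adjusted p = 0.0186) and Nqo1 (0.33, adjusted p = 0.171), and of 9 FOXO targets of muscle 1 was, Pdk4 (1.55, adjusted p = 0.163). No gene of these 2 lists was called, and the genes named here were chosen after their values were seen.

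Across the 20 mice the 10 genes did not rise and fall as 1 group. Of their 45 pairs 31 had a positive Pearson correlation of log2 CPM, with a median of 0.25 and a range of −0.58 (Bnip3l and Pink1) to 0.82 (Sqstm1 and Map1lc3a). Without LP mouse 13, 38 were positive, and the range was −0.50 to 0.77. The correlations are descriptions over mice that differ in diet and share library depth. Bnip3 went with Map1lc3b (0.74) and Sqstm1 (0.72), also without LP mouse 13 (0.73 and 0.77).

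Likeness was measured by the correlation over the 20 mice with each of 10158 other genes that averaged more than 50 normalized counts. Nearest to Bnip3 were Rbp7 (r = 0.92), Mgll (0.87), and Suds3 (0.86), and Rbp7 and Mgll were again among the first 3 without LP mouse 13. Pink1 was nearest to Vwa8 (0.93), Acadvl (0.92), and Idh3g (0.92), Map1lc3b to Akr1a1 (0.96), and Ech1 (0.94), and Map1lc3a to Mrpl12 (0.95), Dnajc15 (0.94), and Hspb2 (0.93). Sqstm1 was nearest to Ecd (0.89), Fbxo40 (0.89), and Slc35c2 (0.88), none of which was among its first 3 without LP mouse 13. Gabarapl1 was nearest to Rps19 (0.86), Rpl38 (0.85), and Cmas (0.85), and Ulk1 to Ulk3 (0.86), Dcaf4 (0.84), and Nup93 (0.82). Fundc1 was nearest to Btbd1 (0.88), Psma3 (0.85), and Spcs1 (0.85). The lowest likeness was that of Becn1 to Sparc (0.80), D330023K18Rik (0.77), and Fxyd6 (0.76) and of Bnip3l to Fmo2 (0.72), Fam122b (0.72), and Sulf1 (0.70). For 7 of the 10 genes at least 1 of the 3 was kept without LP mouse 13.

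The counting program and its use of strand were not given in the sources used here. Genes on the other strand overlap Sqstm1 (Mrnip), Map1lc3b (Zcchc14), Gabarapl1 (1700101I11Rik), and Becn1 (Cntd1), so reads from these partners could not be told apart from those of the genes if strand was not used. No gene of the count table overlaps Bnip3, Bnip3l, Pink1, Fundc1, Map1lc3a, or Ulk1.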

How the data were processed

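Left ventricular RNA of 20 mice was sequenced from the 3′ end (QuantSeq), and the authors aligned the reads on the BlueBee platform and deposited raw gene counts. The submitters' processing notes name GRCm38 and DESeq2 1.22.2. The counting program was not given in the sources used here. Gene symbols and coordinates were taken from GENCODE M21 (GRCm38) by Ensembl ID. Counts were fitted with edgeR 4.0.16 (R 4.3.3), using TMM scaling, the filterByExpr filter, and the quasi-likelihood test, in 1 model over all 4 groups. Genes were called if the adjusted p was below 0.01 and the normalized count averaged more than 50. All 10 genes were named. From 85 further autophagy and mitophagy genes, up to 3 with the smallest p under 0.05 were named per comparison, as were the 3 genes most correlated with each of the 10. Some results that this rule names are counted but not reported here or drawn. Correlations used log2 CPM with a prior count of 2. Alternatives were other scaling, filters, samples, covariates, thresholds, DESeq2 1.42.0, and leaving out each mouse. The fit was checked on simulated data. The 10 genes and all lists were chosen with earlier results of these data known. The labels do not say what the number in a library's name marks.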

Additional observations from a re-analysis of the deposited data

Results flagged for a closer look

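In 40 sets of 5 mice (10 genes in 4 groups), a mouse far from its group was looked for with Dixon's ratio, the gap to the nearest mouse divided by the group's range. The ratio exceeded its critical value of 0.71 in 2 sets, and chance alone gives about 1 in 20. NP mouse 6, with 2221 normalized counts of Bnip3, stood above the other NP mice with a gap of 0.723 of the range, and it was still below every HF mouse. HF mouse 4, with 7506 normalized counts of Pink1, stood above the other HF mice with a gap of 0.716 of the range.

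The effect of protein restriction on Pink1 differed with and without high fat by 0.39 on the log2 scale at an unadjusted p of 0.0262 (edgeR adjusted p = 0.683). This difference did not pass the correction over all genes. It was the only one of 10 such differences under 0.05.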

How the results depend on the processing

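Bnip3, the called gene of the fat effect, was higher with fat under every alternative run, and the number of the 10 genes called was the same in all 7 comparisons whichever mouse was left out. DESeq2 called 1 of the 10 genes for HF against NP (Bnip3, 0.43), 1 for HF + LP against LP (Bnip3, 0.42), and 2 for the fat effect (with Map1lc3b, 0.33). An adjusted p under 0.05 in edgeR called 2 for the fat effect. The number of the 10 genes at an unadjusted p under 0.05 moved more. For HF against NP it was 1, and it was 3 with RLE size factors, 2 without mitochondrially encoded transcripts, 4 with DESeq2, 5 with only these groups in the fit, and 2 with the library number as a covariate or without LP mouse 13 and HF mouse 1, an alternative chosen after seeing the data. For LP against NP it was 1, and it was 0 under the last 3 of these. For HF + LP against LP it was 5, and it was 3 under the same 3. For the interaction it was 1, and 0 without LP mouse 13 and HF mouse 1. The cause was not tested.

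Leaving out 1 mouse gave 1 to 4 genes at an unadjusted p under 0.05 for HF against NP (4 without HF + LP mouse 3, 2 without NP mouse 6, LP mouse 13, HF mouse 3, or HF mouse 5), 0 to 1 for HF + LP against HF (1 without HF + LP mouse 3), 0 to 2 for LP against NP (0 without NP mouse 3, 5, or 6 or LP mouse 13 or 20, 2 without LP mouse 15 or HF + LP mouse 3), 3 to 7 for HF + LP against LP (3 without LP mouse 13 or 5 or HF + LP mouse 2 or 4), 5 to 7 for the fat effect, 0 to 1 for protein restriction (1 without LP mouse 5), and 0 to 1 for the interaction.

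Animal numbers are shared between diets but belong to different mice, and they did not pair them. Same-numbered HF and HF + LP mice had deviations from their group means that correlated from −0.553 to 0.476 over 5 pairs, and 1 of 5 was most alike to its own number. With the number as a replicate block, 0 of the 10 genes were called in the fat effect (Bnip3 0.39, edgeR adjusted p = 0.0920), and 4 had an unadjusted p under 0.05 there. The block gave 2 such genes for HF against NP, 0 for LP against NP, 2 for HF + LP against LP, and 0 for the interaction.

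Over all genes, the number called for HF against NP was 37, and it was 158 with DESeq2, 61 with only these groups, 2 with the block, 66 without LP mouse 13 and HF mouse 1, 157 at an adjusted p under 0.05, and 20 to 69 with 1 mouse left out. For HF + LP against LP it was 14, and it was 81, 0, 0, 3, 45, and 1 to 16 in the same order, with 5 under the library number. For the fat effect it was 140 (36 higher, 104 lower), and it was 389 with DESeq2 (165 higher, 224 lower), 13 with the block, 502 at an adjusted p under 0.05, and 79 to 198 with 1 mouse left out. Where 0 genes were called, DESeq2 called 16 for HF + LP against HF, 3 for LP against NP, and 1 for protein restriction, and leaving out LP mouse 13 and HF mouse 1 called 6 for HF + LP against HF. With 5 mice per group, a difference of 0.30 on the log2 scale in Ulk1, the most variable of the 10 genes, was not detectable for HF + LP against HF, and its fat difference of −0.19 was 0.06 under the block.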
